A study of Mus musculus with 14 samples.

Results

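The genes Fos, Fosb, Fosl1, Fosl2, Jun, Junb and Jund encode the Fos and Jun families of the transcription factor AP-1. These 7 genes were chosen by name from 21938 protein-coding genes on the chromosomes, and the H3K4me1 sites overlapping each gene with 50 kb on either side were mapped. Together the 7 windows held 151 of the 160144 deposited sites. The ChIP-seq libraries for H3K4me1 came from NG3 cells, a single clone of immortalized mouse embryonic fibroblasts (iMEF). In all groups both alleles of floxed Ash2l were deleted by Cre-ER, and a lentiviral construct expressed human ASH2L with an N-terminal FKBP degradation domain and an HA2 tag, so the control carries these changes as well. ASH2L is a core subunit of the KMT2 methyltransferase complexes that methylate lysine 4 of histone H3. The control received no dTAG, and the other groups were treated with the PROTAC dTAG-13, which causes degradation of the fusion protein, for 30 min or for 2, 4, 8 or 16 h. Each of these 6 conditions had 2 replicates, and 2 inputs, of control cells and of cells after 16 h, bring the number of libraries to 14. The deposited sites form a single set over all samples without a value per library. The values given here are therefore positions, numbers and widths of sites, with no replicate error, no time point and no test.

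AP-1 is a dimer of basic leucine zipper proteins. Jun proteins pair with each other or with a Fos protein, while Fos proteins need a Jun partner. The dimers bind the word TGACTCA, which reads TGAGTCA on the other strand. The word searched here was TGANTCA, where N is any base, so that TGAATCA counted as a match as well. Fos, Fosb, Jun and Junb are immediate early genes that growth factors and stress induce within minutes through serum response factor and its ternary complex partners at the CArG box, CREB family factors and AP-1 itself. In fibroblasts, AP-1 follows serum stimulation and is known to act at many enhancers. H3K4me1 marks enhancers and, at active promoters, the flanks of the TSS, where H3K4me3 takes its place.

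The sequences shown first lie upstream of the TSS of Fos, Jun and Fosb. They hold matches to the words searched, inside sites or in a gap between sites. All are from mm10 and read 5′ to 3′ in the direction of transcription, with the matched words in capitals. The Fos stretch, chr12:85473408-85473610 on the plus strand, lies from -482 to -280 bp relative to the TSS and holds TGAATCA and a CArG box. The Jun stretch, chr4:95052223-95052472 on the minus strand, comprises the 250 bp upstream of the TSS and holds TGACATCA, a variant of the AP-1 word. The Fosb stretch, chr7:19310288-19310337 on the minus strand, lies from -286 to -237 bp and holds a CArG box. These 3 stretches were chosen after the positions of the words had been seen.
Fos: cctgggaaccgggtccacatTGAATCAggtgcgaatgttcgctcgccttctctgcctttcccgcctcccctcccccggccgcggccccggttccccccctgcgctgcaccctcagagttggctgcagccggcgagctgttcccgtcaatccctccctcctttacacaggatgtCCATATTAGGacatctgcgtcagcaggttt
Jun: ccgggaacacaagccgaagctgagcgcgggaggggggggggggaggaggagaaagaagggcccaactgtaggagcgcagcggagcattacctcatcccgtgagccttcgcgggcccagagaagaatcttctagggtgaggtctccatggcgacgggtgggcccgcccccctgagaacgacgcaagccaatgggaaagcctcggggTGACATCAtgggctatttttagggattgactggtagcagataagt
Fosb: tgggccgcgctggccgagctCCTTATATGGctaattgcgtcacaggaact

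Of the words searched on both strands in the 1 kb upstream of the TSS, Fos held TGANTCA at -462 to -456 bp and a CArG box at -309 to -300 bp. Both lie inside the site at the Fos TSS. Fosb held a CArG box at -266 to -257 bp, which is also inside a site. Jun held TGACATCA at -45 to -38 bp, in the gap between its promoter sites. Jund held TGACGTCA, the full word bound by CREB and ATF factors, at -214 to -207 bp, where no site was found. None of the 4 words was found in this window at Fosl1, Fosl2 and Junb. Over all protein-coding genes, TGANTCA was present in 23.8% of the 1 kb windows, TGACATCA in 6.08%, the CArG box in 5.66% and TGACGTCA in 2.55%. A match is a sequence match and not a measured binding site.

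Of the 7 loci, 6 were densely covered by H3K4me1 sites and Jund was not. The windows of the 6 genes other than Jund held 145 sites, between 18 for Fos and 31 for Fosl2, and 35.7% of their bases lay in a site. The Jund window held 6 sites, which were all located between -49774 and -25008 bp from the TSS. Most of this window is sequence that is not unique in the full GRCm38.p6 assembly, as described below. Its values may therefore not be comparable to those of the other 6.

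**Figure D1:**
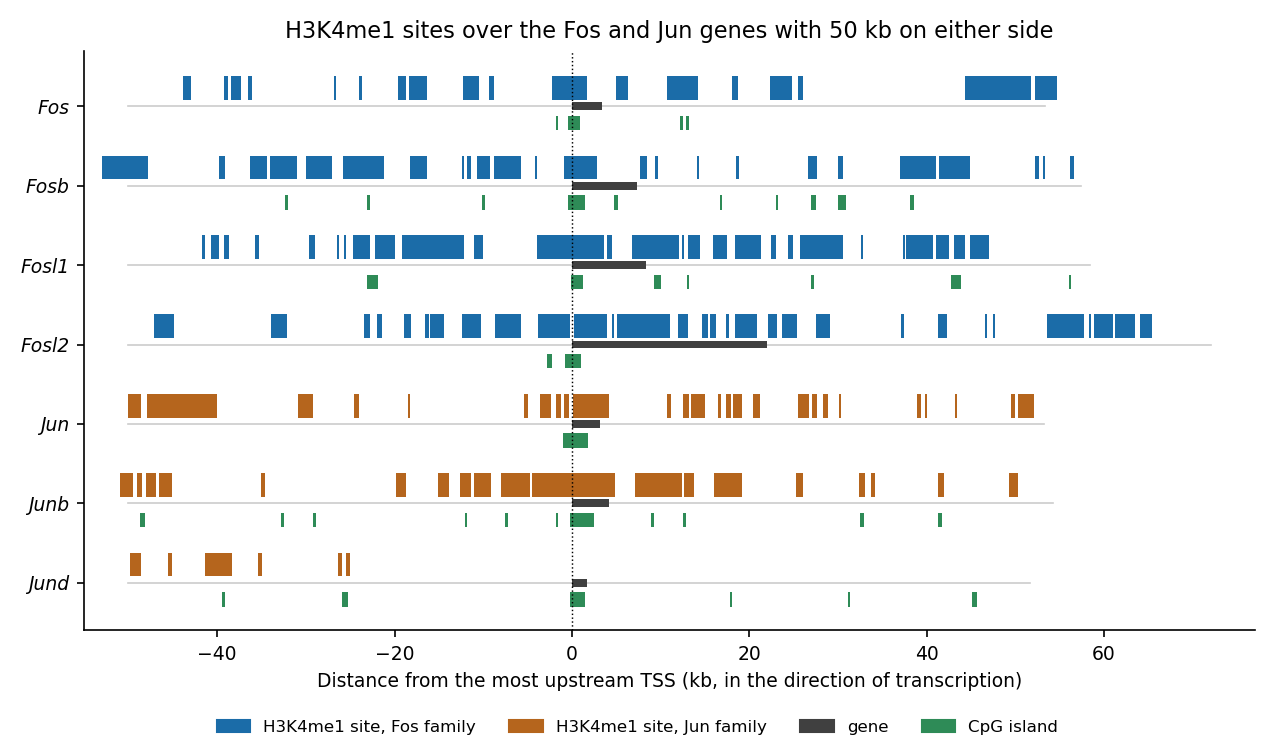
H3K4me1 sites (boxes above the lines), genes (dark bars) and CpG islands (green boxes below) in the windows of the 7 genes, plotted by distance from the most upstream TSS in kb and in the direction of transcription. Fos family sites are blue and Jun family sites brown. Sites spread over both flanks of 6 genes, while the 6 Jund sites lie upstream beyond 25 kb only.

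Coverage was expressed as the percent of bases of the window that lay in a site. For Fosl1, which encodes FRA1, it was 45.8%, for Fosl2, which encodes FRA2, 39.5%, and for Fosb 35.9%. Junb reached 33.9%, and Fos and Jun were close to each other with 28.9% and 28.8%. Jund had 5.92%. The median over the 7 genes was 33.9%, and the median over all protein-coding genes was 7.86% with quartiles of 2.31 and 14.8%. In the distribution of all protein-coding genes, Fosl1 was at percentile 99.7, Fosl2 at 99.2, Fosb at 98.7, Junb at 98.2, Fos at 96.2 and Jun at 96.1. Jund was at percentile 41.7, counted over its whole window including the sequence that is not unique.

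**Figure D2:**
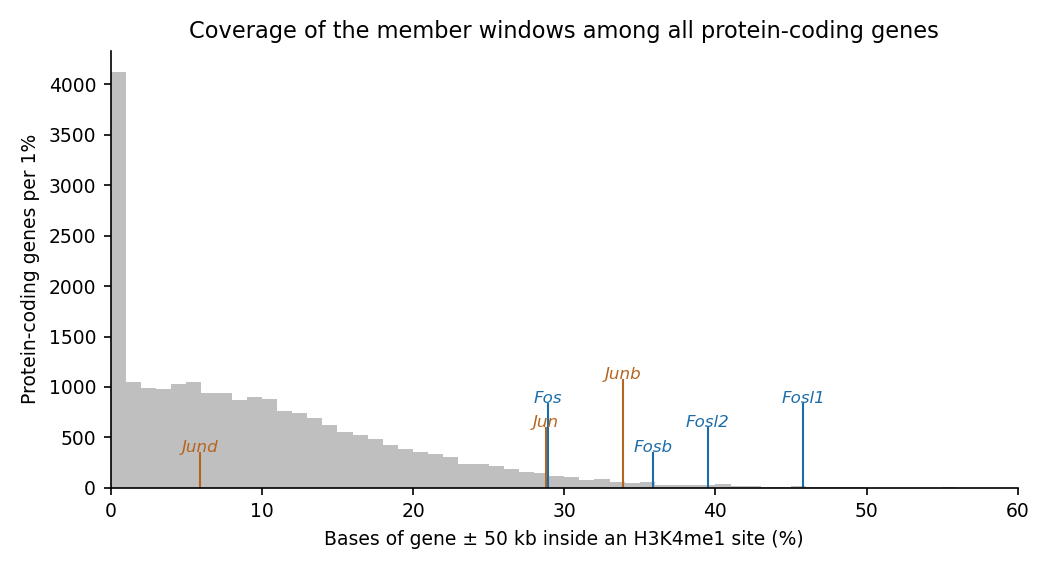
Number of protein-coding genes per 1% of coverage (grey bars) against the percent of bases of the gene with 50 kb on either side that lie in an H3K4me1 site. Coloured lines mark the 7 genes, and their height has no meaning. Jund, whose window is mostly sequence that is not unique, lies at 5.92% within the bulk of genes. The other 6 lie between 28.8 and 45.8% in the right tail.

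By number of sites per 100 kb the order was different, with 25.4 for Fosl2, 25.2 for Jun and 24.9 for Fosl1. Fosb had 22.4, Junb 18.2, Fos 17.4 and Jund 5.90, against a median of 8.61 over all protein-coding genes. Jun thus ranked high by number and lower by bases, since its sites were narrow with a median width of 578 bp. The median width was 1057 bp for Fos, 931 bp for Fosb, 1005 bp for Fosl1, 1118 bp for Fosl2, 1153 bp for Junb and 491 bp for Jund. Over the 151 sites it was 967 bp, and 603 bp for all sites on chromosomes. Sites of at least 5000 bp made up 9 of the 151 (5.96%), compared to 0.937% of all sites. A position in a window does not assign a site to the gene. For 78 of the 151 sites the nearest TSS of a protein-coding transcript belonged to the gene in question, and for 73 it belonged to a neighbour.

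At the promoter, defined as 1 kb on either side of the most upstream TSS, 6 of the 7 genes had a site, with Jund as the exception. For comparison, 63.9% of all protein-coding genes had a promoter site. All 7 genes had a CpG island within 1 kb of the TSS, while 53.9% of all protein-coding genes did, and 93.0% of the 11822 protein-coding genes with such an island had a promoter site. The island at the TSS measured 1314 bp at Fos, 1848 bp at Fosb, 1370 bp at Fosl1, 1804 bp at Fosl2, 2794 bp at Jun, 2740 bp at Junb and 1651 bp at Jund. Each of these islands spanned the TSS, and the one at Jund, from -193 to 1457 bp, overlapped no site.

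Arrangement at the TSS fell into 3 forms. A site covered the TSS itself at Fos, Fosb, Fosl1 and Junb, 4 of the 7 genes, against 39.5% of all protein-coding genes. Among protein-coding genes with both a promoter site and a CpG island, as all members but Jund have, the share was 60.9%. At Fosl2 and Jun the TSS lay in a short gap between a site on either side. At Jund there was no site within 25 kb. These forms come from a set pooled over control and treated cells. The study reports that sites gaining H3K4me1 after ASH2L loss lay nearly all at promoters. The form in control cells alone is therefore not known.

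**Figure D3:**
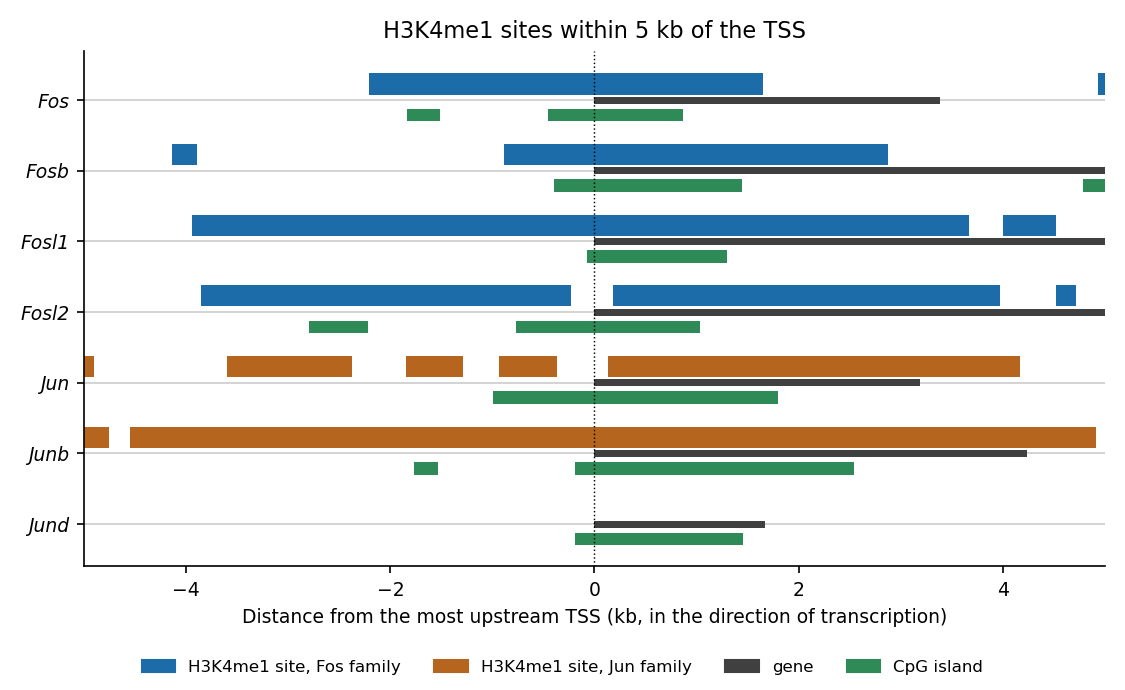
H3K4me1 sites (upper boxes), genes (dark bars) and CpG islands (green) within 5 kb of the most upstream TSS, in kb and in the direction of transcription. A single site spans the TSS of Fos, Fosb, Fosl1 and Junb, a gap of 412 bp at Fosl2 and of 502 bp at Jun lies between sites, and Jund has an island but no site.

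Fos (ENSMUSG00000021250), the founding member of its family, lies on the plus strand of chromosome 12 at chr12:85473890-85477273 and has 4 exons. The site at its TSS was 3866 bp wide and reached from -2212 to 1653 bp, over the promoter island, the first exon and part of the coding sequence, and 48.9% of the gene was covered. The other 17 sites lay outside the gene, 10 upstream and 7 downstream. No other protein-coding gene has a TSS in this window, so that Fos was the nearest gene for all 18 sites. Upstream, the widest site, with 2007 bp, was located from -18361 to -16355 bp, and a site of 1853 bp with a CArG box lay from -12302 to -10450 bp. Downstream, a site of 3534 bp from 10731 to 14264 bp overlapped 2 small CpG islands and held a CArG box as well. A site of 2465 bp followed from 22333 to 24797 bp, and the widest one of the window, 7513 bp, lay from 44301 to 51813 bp. Enhancers on both sides of Fos are known from neurons, but their positions were not used here, and no site is called an enhancer.

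Fosb (ENSMUSG00000003545) encodes a FOS paralog that is induced along with Fos, and lies on the minus strand of chromosome 7 at chr7:19302696-19310051. The site at its TSS measured 3765 bp, from -889 to 2875 bp, and thus lay mostly inside the gene, with 1865 bp in introns. The next site began 7668 bp downstream of the TSS, beyond the gene end. Upstream, 12 sites were found, among them sites of 3077 bp at -8827 to -5751 bp with 4 TGANTCA words and of 4615 bp at -25811 to -21197 bp with 3. The gene lies in a dense region with 6 other protein-coding genes in the window. Over all protein-coding genes, 66.8% had a site within 1 kb of the TSS of at least one coding transcript. All 6 of the neighbours, Cd3eap, Ercc1, Ppm1n, Ppp1r13l, Rtn2 and Vasp, had such a site, and Fosb was the nearest gene for 9 of 24 sites.

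Fosl1 (ENSMUSG00000024912) is located on the plus strand of chromosome 19 at chr19:5447547-5455946 and encodes a FOS paralog that is itself an AP-1 target. Its TSS lay in a site of 7616 bp from -3942 to 3673 bp, at percentile 98.2 of the widths of sites over the 8662 covered TSSs of protein-coding genes. With 5 TGANTCA words it held more of them than any other site at a TSS of the 7 genes. They began at -1553, 350, 1308, 2319 and 2939 bp, the last 3 in introns, and 4 of the 5 read TGAGTCA. A site of 520 bp followed inside the gene, and a site of 5383 bp from 6722 to 12104 bp ran over the gene end to the TSS of Ccdc85b. Upstream, a site of 6977 bp from -19191 to -12215 bp held 6 TGANTCA words. Of 10 other protein-coding genes in the window, 8 had a site within 1 kb of a TSS, beside 66.8% of all protein-coding genes. They were AI837181, Ccdc85b, Cfl1, Ctsw, Drap1, Efemp2, Fibp and Mus81. Fosl1 was the nearest gene for 3 of 27 sites.

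Fosl2 (ENSMUSG00000029135) is the longest of the 7 genes and lies on the plus strand of chromosome 5 at chr5:32135801-32157842. No site covered its most upstream TSS. A site of 3632 bp ended at -227 bp and a site of 3787 bp began at 186 bp, leaving a gap of 412 bp. RefSeq places the TSS 671 bp further downstream, which is inside the second site. Inside the gene, 69.6% of the bases were covered. The widest of the intragenic sites, 5997 bp from 5069 to 11065 bp, was intronic but for 42 bp, whereas 3 sites toward the gene end lay in the last exon and its untranslated region. No other protein-coding gene has a TSS in the window. Fosl2 was the nearest gene for 26 of the 31 sites, and the other 5, from 53586 to 65445 bp, were nearer to a TSS of Plb1.

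Jun (ENSMUSG00000052684) consists of a single exon on the minus strand of chromosome 4 at chr4:95049034-95052222 and encodes c-JUN, the main partner of Fos proteins. Here, a site of 567 bp ended at -370 bp and a site of 4034 bp began at 133 bp, so that 502 bp around the TSS were free of sites. This gap contains the word TGACATCA shown above. The second site covered 95.8% of the gene and ended 4166 bp from the TSS. Upstream, 4 sites lay between -5374 bp and the TSS, and the next one lay from -18528 to -18252 bp. The widest site of the window, 7862 bp, lay from -47903 to -40042 bp, and 16 mostly narrow sites were scattered downstream. Gaps of this kind were found at 3009 protein-coding genes (13.7%), with a median length of 423 bp and quartiles of 339 and 572 bp, so that both Fosl2 and Jun fell into the middle range.

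Narrow sites allow the word and its place to be seen directly. Only 2 sites of at most 300 bp in the 7 windows held TGANTCA and had the gene in question as nearest, and both belonged to Jun. They are printed on the plus strand, opposite to Jun, with TGANTCA in capitals. The first lies at chr4:95035427-95035700, from 16522 to 16795 bp downstream of the TSS, and the second at chr4:95021896-95022148, from 30074 to 30326 bp. In the first, TGANTCA is at the edge of the site next to the gene. In the second it is near the edge far from the gene. The first also holds TGACATCA, which is left in lower case.
Jun 16522 bp: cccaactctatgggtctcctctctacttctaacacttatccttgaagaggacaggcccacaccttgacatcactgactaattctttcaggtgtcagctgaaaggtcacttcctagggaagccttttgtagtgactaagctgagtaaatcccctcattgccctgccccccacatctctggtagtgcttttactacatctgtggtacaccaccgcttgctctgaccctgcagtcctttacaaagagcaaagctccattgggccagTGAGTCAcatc
Jun 30074 bp: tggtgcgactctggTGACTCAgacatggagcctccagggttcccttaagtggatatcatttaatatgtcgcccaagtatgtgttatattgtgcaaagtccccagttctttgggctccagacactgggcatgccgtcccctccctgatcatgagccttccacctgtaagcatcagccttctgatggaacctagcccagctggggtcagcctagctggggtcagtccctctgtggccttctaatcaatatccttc

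Junb (ENSMUSG00000052837) encodes a Jun protein with weaker activating function than c-JUN and lies on the minus strand of chromosome 8 at chr8:84974484-84978718. The whole gene, 100% of its bases, was covered by a site of 9467 bp from -4554 to 4912 bp, the widest site in the 7 windows. Among sites over covered TSSs of protein-coding genes it ranked at percentile 99.0 by width, compared to 89.2 for the site at Fos and 88.4 for that at Fosb. The site held 2 TGANTCA words, at -3688 and -2609 bp, and 2 CArG boxes, and its next neighbour upstream was separated by less than 200 bp and reached to -7996 bp. All 9 other protein-coding genes of the window had a site within 1 kb of a TSS, beside 66.8% of all protein-coding genes. They were Asna1, Best2, Gm49661, Hook2, Mast1, Prdx2, Rnaseh2a, Rtbdn and Trir. Junb was the nearest gene for 1 of its 19 sites.

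Jund (ENSMUSG00000071076) encodes the Jun protein that is expressed most constantly and is little induced by serum. It is a single exon gene on the plus strand of chromosome 8 at chr8:70698949-70700616, and a gene on the opposite strand, Gm11175, overlaps it. No base of the gene and of its promoter lay in a site. RefSeq places the TSS at -1210 bp, and no site was found within 1 kb of that position either. The nearest site upstream was 410 bp wide and ended at -25008 bp, near the TSS of Lsm4. Further upstream, a site of 3086 bp covered the TSS of Pgpep1, and the nearest site downstream was 307 bp wide and began at 148876 bp. The site-free stretch between them, chr8:70673942-70847824, was 173883 bp long. Of 160088 stretches between neighbouring sites, whose median was 3352 bp, 1474 (0.921%) were longer.

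The stretch at Jund is rich in genes. It contains the TSS of 10 protein-coding genes, Jund, Iqcn, Gm3336, Pde4c, Rab3a, Mpv17l2, Pik3r2, Mast3, Il12rb1 and Arrdc2, of which 6 have a CpG island within 1 kb of the TSS. In total 19 CpG islands lie in it, its GC content was 53.6% and 21.2% of its bases were repeat-masked. The flanks of the same length held 33 sites on the side of lower coordinates, with 35.0% of the bases covered, and 19 sites with 14.5% covered on the other side.

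Sequence that occurs more than once in a reference cannot be assigned to a single place by a read. Words of 75 bases, the number of sequencing cycles, were therefore counted over the full GRCm38.p6 assembly on both strands. In the Jund stretch, 1.38% of the words were unique, compared to 98.5 and 97.7% in the flanks, where the second was measured over 102792 bp. Counted on the chromosomes alone, 98.9% of the words in the stretch were unique. The copies are on a FIX patch of chromosome 8, a scaffold that carries a corrected version of the region, and 98.6% of the words of the stretch occurred on a patch. The copied block reached from -25168 to 146795 bp relative to the Jund TSS, and the site-free stretch from -25007 to 148875 bp. In the 24.8 kb of the Jund window before the block, 23.6% of the bases lay in a site. At the other 6 genes all words within 1 kb of the TSS were unique, as were 98.0 to 99.4% of the words in the windows. At Jund, a lack of the mark and a lack of uniquely placed reads cannot be told apart.

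**Figure D4:**
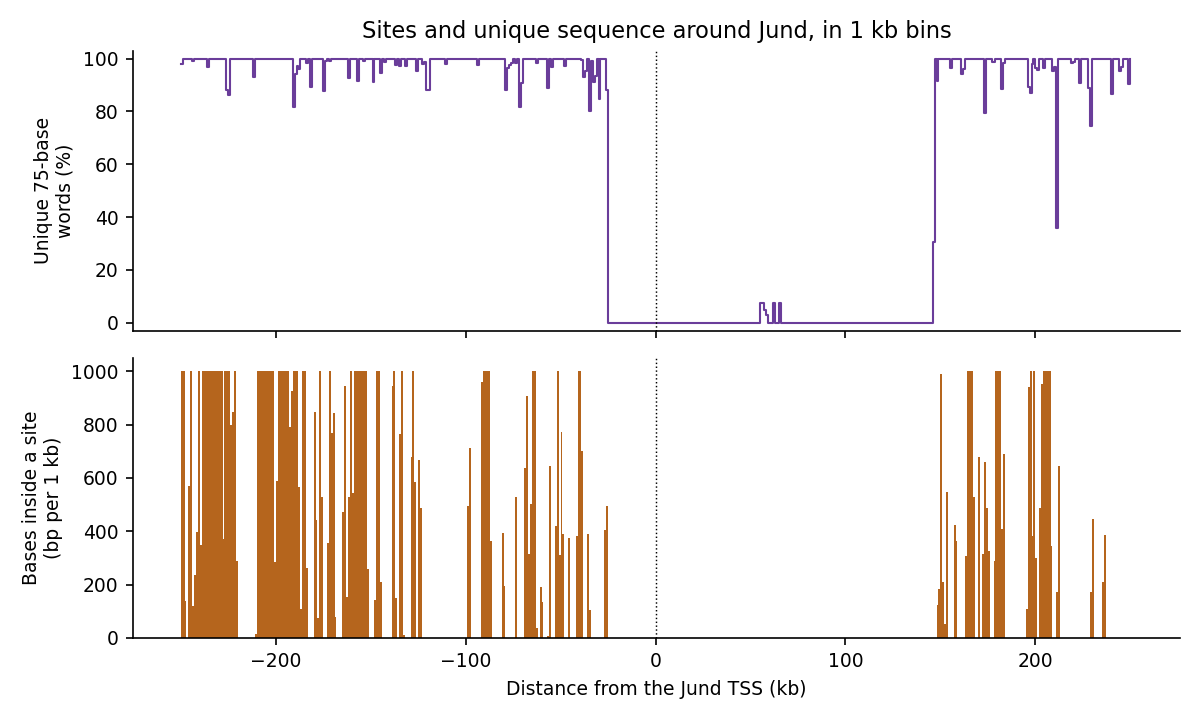
Percent of 75-base words that are unique in the full GRCm38.p6 assembly (upper panel) and bases inside an H3K4me1 site (lower panel), both in bins of 1 kb by distance from the Jund TSS (dotted line). Unique words drop to near 0% from about -25 to 147 kb, and no site lies in these bins.

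The same count was made over all chromosomes but Y, which holds no site. Bins of 1 kb in which at least 90% of the words also occurred on a patch scaffold of the same chromosome added up to 24.7 Mb, with 71 patches considered. The centre of 1 site lay in them, or 0.0405 per Mb, against 62.8 per Mb in the remaining sequence. They contained the TSS of 263 protein-coding genes, including Jund as the only one of the 7. Of these, 1 had a promoter site (0.380%), whereas 65.2% of the 21492 other protein-coding genes did. A CpG island was present at 139 of the 263, and none of these 139 had a promoter site. Among the other genes with an island, 94.1% had one. The study's methods name GRCm38.p6 from GENCODE release M25 as the reference genome, a release of the assembly that includes patches, and do not say whether patch scaffolds were among the sequences aligned to. Of the 12 scaffolds on which the table lists sites, 2 are part of the primary assembly annotation and 10 are not.

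The word TGANTCA was present in 62 of the 151 sites, or 41.1% (95% Wilson interval 33.5 to 49.0%), and in 35.5% of all sites on chromosomes. When only the central 200 bp of each site were searched, the order was the opposite, with 7.95% of the sites in the windows and 12.7% of all sites. Wider sites hold more words by length alone, so the share was compared within classes of width. It was 23.3% of 43 sites under 500 bp, against 19.6% of all such sites, and 32.4% of 34 sites of 500 to under 1000 bp, against 36.1%. In the class of 1000 to under 2000 bp it was 33.3% of 36 sites (interval 20.2 to 49.7%) against 51.0%, and from 2000 bp upward 76.3% of 38 sites (interval 60.8 to 87.0%) against 70.4%. The share of all sites was within the interval in 3 of the 4 classes. These intervals reflect only the number of sites counted, and sites next to each other are not independent of each other.

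**Figure D5:**
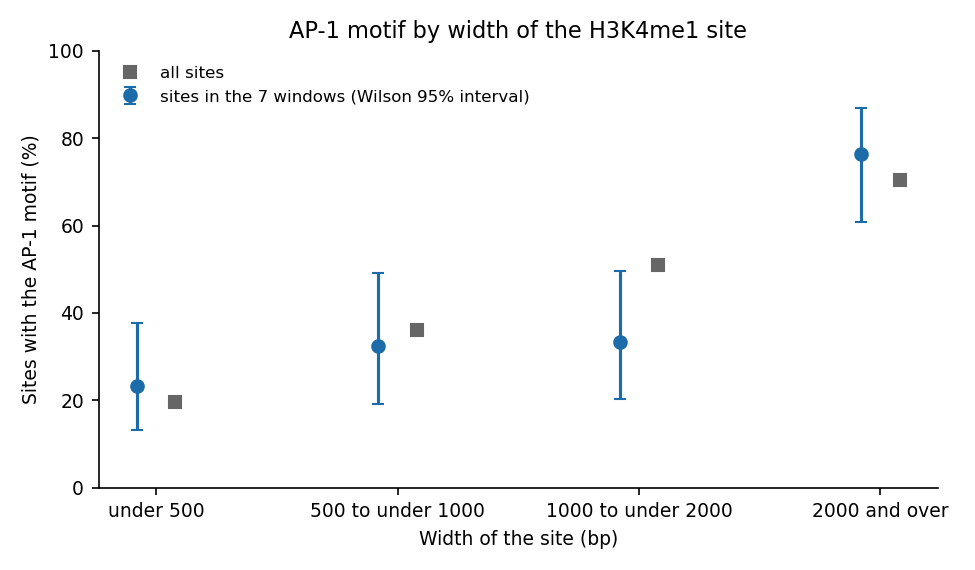
Percent of H3K4me1 sites with TGANTCA, labelled AP-1 motif, by width of the site in bp. Sites in the 7 windows are blue, with 95% Wilson intervals, and all sites on chromosomes are grey. The share rises with width in both, from 19.6 to 70.4% for all sites.

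Counted by base, the sites in the windows held 107 words, or 4.51 per 10 kb, and the bases between the sites held 134, or 2.61 per 10 kb. The density over all chromosomes was 3.18 per 10 kb. Over their whole width the 151 sites held 4.37 words per 10 kb, fewer than the 5.33 per 10 kb of all sites on chromosomes, and in the class of 1000 to under 2000 bp the values were 3.65 and 5.18. A higher density inside than outside of sites was present in the windows of Fosb, with 5.45 inside and 2.32 outside of sites, Jun with 5.38 and 3.13, Jund with 4.99 and 2.93, Fosl2 with 4.77 and 2.57, Fosl1 with 4.63 and 3.06 and Junb with 3.68 and 1.45. In the Fos window the densities were 2.68 and 2.72, and the Jund value rests on 3 words in sites. The bases outside the Jund sites are mostly sequence that is not unique, and they enter the pooled 2.61 per 10 kb as well. The CArG box was present in 15 of the 151 sites (9.93%) and in 4.67% of all sites, while TGACGTCA was found in 2 of the 151 (1.32%) and in 1.02% of all sites. These shares were not compared by width.

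Likeness between loci was measured as the Jaccard index, the shared part of all bases covered in either of 2 genes, within 5 kb of the TSS. Among the members, Fosl1 and Junb were most alike with 0.838, followed by Fosl1 and Fosl2 with 0.825. Fos and Jun, with 0.341, had the lowest value among the 6 genes with a promoter site, and Jund shared no base with any member. The index depends on the number of covered bases as well as on their place. Within 5 kb of the TSS, 9714 bp were covered at Junb, 8136 bp at Fosl1 and 7619 bp at Fosl2. Jun had 6476 bp, Fosb 4005 bp, Fos 3930 bp and Jund 0 bp. The order among the members is therefore not one of position alone. Outside of the family, the gene most alike was Pmm2 for Fos (0.957), Mapre2 for Fosb (0.928), Tgfbi for Fosl1 (0.955), Zfp36l1 for Fosl2 (0.877), Enc1 for Jun (0.791) and Krt80 for Junb (0.975). Each was the highest of all protein-coding genes, so a high value is given by the choice. It describes number and place of covered bases in a single pooled set only.

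The genes around AP-1 in the same pathway were taken from 3 lists. The first comprised 15 dimer partners of the ATF, BATF, JDP and MAF groups. A promoter site was present at 14 of them, beside the 63.9% of all protein-coding genes and the 93.0% of those with a CpG island, which 12 of the 15 have. The exception was Nrl, which had a site at another of its annotated TSSs. The TSS of 9 was covered, beside 39.5% of all protein-coding genes and 61.8% of those with a promoter site. The most covered promoters, of 2001 bp at most, were those of Batf3 with 2001 bp and Atf4 with 1919 bp. The second list held 17 kinases and transcription factors that act upstream of Fos and Jun, such as the MAP kinases, SRF and the ternary complex factors. All 17 had a promoter site, beside the same 63.9% of all protein-coding genes and 93.0% of those with a CpG island, which 15 have. A site covered the TSS of 7 of the 17, beside 39.5% of all protein-coding genes and 61.8% of those with a promoter site. Elk3, Elk4, Mef2a and Mef2d were covered over all 2001 bp of the promoter, Elk1 over 419 bp. The third list held 12 AP-1 targets, 11 of which are annotated as protein-coding, since Mmp1a is a polymorphic pseudogene in this annotation and was left out. All 11 had a promoter site, beside 63.9% of all protein-coding genes. The TSS of 8 was covered, beside 39.5% of all protein-coding genes and 61.8% of those with a promoter site. A CpG island is present at 3 of the 11, beside 53.9% of all protein-coding genes. Ccnd1, which encodes cyclin D1, was covered over 2001 bp and the hyaluronan receptor gene Cd44 over 1777 bp of the promoter. The median coverage of the windows was 13.7% for the partners, 12.6% for the upstream genes and 12.3% for the targets, compared to 33.9% for the 7 genes and 7.86% for all protein-coding genes.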

How the data were processed

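H3K4me1 was measured by ChIP-seq in 12 libraries of NG3 cells with 2 inputs. Per the study's methods, the authors used Trim Galore, BWA with mm10 (GRCm38.p6, GENCODE release M25), a samtools filter as ENCODE recommends, Picard to merge the replicates, and Macs in broad mode. Versions and thresholds are not given in the sources used here. Whether the samtools filter removed reads from sequence with more than one copy in the alignment reference is not stated. The values deposited by the authors are starts and ends of peaks in a single set, with no score, signal, count or p-value for any library, so depth is unknown and no changed sites were tested. The submitters' processing notes also name deepTools and DESeq2.

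Starts, counted from 0 in the table, were converted to 1. Overlaps (at least 1 bp), coverage and word counts were made in Python 3.11.15 (pandas 2.3.3, numpy 2.4.6, numba 0.67.0, scipy 1.17.1, and matplotlib 3.10.9 for figures). Genes were from GENCODE release M21, the sequence from GRCm38.p6 and the promoters of 6 of the 7 genes from RefSeq (GRCm38.p6). CpG islands, 16196 in all, were called outside repeats as segments scoring 17 for every CpG and -1 for each further base, longer than 200 bp, with at least 50% GC and an observed to expected CpG ratio above 0.6, since the UCSC track was not used here. Word counts, islands and overlaps were tested on simulated data. Motifs were searched on both strands. TGANTCA has 1 base between its ends and the words TGACGTCA and TGACATCA have 2, so that no match counts as both.

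The 7 genes, the lists and the rules for naming genes and printing sequences were chosen with earlier results of these data known. Named were all members, neighbours with a site within 1 kb of a TSS and not closer to the member, genes in the site-free stretch, the most alike gene, and from each list the genes without a promoter site and those with the most covered promoters. Elk1 was named after its value was seen. Alternatives concerned the flank, site width, merging, overlap, the TSS and the island rule.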

Additional observations from a re-analysis of the deposited data

How the results depend on the processing

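Of 32 alternatives, 26 stayed within 1.5 times the value given or, for the share with TGANTCA, within its interval. A flank of 25 kb gave 89 sites and 151563 covered bases in the 7 windows, and a flank of 100 kb gave 258 sites and 362543 bases, since the windows themselves change, against 151 sites and 237369 bases. Merging sites within 1 kb left 89 sites. With only the central 200 bp of each site searched, 7.95% of the sites held TGANTCA, below the 12.7% of all sites, whereas with the whole site searched the share was above that of all sites. The number of genes with a promoter site was 6 under all 7 alternatives, and 7 genes had a CpG island under both. A covered TSS was found at 4 to 6 genes. It was 5 with any annotated TSS or with the RefSeq TSS, which was chosen after seeing the data as was leaving out Jund. With merged sites it was 6. For Fosl1, which has no entry in the RefSeq promoters, the GENCODE TSS was kept in both counts that use the RefSeq TSS. The Jund stretch measured 188309 bp with sites of at least 500 bp only. No paired analysis was possible because the libraries have no values of their own in this set, and for the same reason leaving out each replicate, a replicate block and DESeq2 for changed sites per time point were not run. The set does not give the depth behind a site, so a lack of sites means that none was called.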
